A study of Mus musculus with 6 samples.

Results

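The tight junction genes described here are 33 genes of the 56748 in each deposited table: 18 claudins, 3 MARVEL proteins, 6 immunoglobulin-like membrane proteins and 6 plaque proteins. They were taken by name as members of the junction. No measured value entered the rule, but earlier results of these data were known when the members were chosen. *Cldn22* was left out because its sequence overlaps another gene. Uteri of pregnant mice were collected on day 4 at 1600 h, shortly before a blastocyst attaches, and poly(A) RNA of 3 control and 3 *Gp130* ecKO uteri was sequenced as strand-specific single reads. *Gp130* (*Il6st*) encodes the signal transducer that the leukemia inhibitory factor receptor shares with other cytokines of the interleukin 6 family. *Gp130* ecKO females carried *Ltf* iCre/+; *Gp130* flox/flox, in which the lactoferrin (*Ltf*) promoter drives Cre in the uterine epithelium, and the study's text adds that *Ltf* is also active in some immune cells. The labels call the controls WT, while the study's methods allow *Ltf* +/+; *Gp130* flox/flox or wildtype females as controls, and which of these each control was cannot be told from the labels. All females were sexually mature C57BL/6 mice (C57BL/6J in the study's methods) mated with wildtype males. The labels do not say whether each library is 1 animal. A p-value here sets the difference between the groups against the spread of these 6 libraries within their groups.

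Tight junctions seal the space between neighbouring epithelial cells near the apical surface and divide the apical from the basolateral membrane. Claudins form the strands: some tighten the barrier and others line channels that let small ions or water pass between cells. Occludin and the tricellulin family, the junctional adhesion molecules and the angulins complete the membrane part, and the plaque proteins ZO-1, ZO-3, cingulin and the MAGI scaffolds tie it to actin. In the uterus the junctions of the luminal epithelium control the content of the lumen around the time of attachment, and endothelial cells carry junctions with their own claudin and adhesion molecules.

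The libraries held between 13960748 and 25906443 expected counts, and control 3 was the shallowest. Control 2 lay between the groups on the first axis of a multidimensional scaling of all genes, at 0.029, against 2.09 and 2.08 for the other controls and -1.47 to -1.32 for the *Gp130* ecKO uteri. *Gp130* itself (*Il6st*) was at 631, 678 and 452 CPM (read counts scaled to a common library size) in the controls and at 388, 350 and 362 CPM in *Gp130* ecKO. The groups did not overlap, with a log2 fold change of -0.68 ± 0.21 (standard error) and an edgeR quasi-likelihood adjusted p of 0.12. Which cells or which form of the transcript gave the reads that remain was not tested. Epithelial markers were abundant in every uterus (summed 1997 to 3093 CPM in controls and 4429 to 6026 CPM in *Gp130* ecKO), and 8 of 9 were higher in *Gp130* ecKO, with a median log2 fold change of 0.93. Endothelial markers (432 to 1107 against 238 to 427 CPM) and stromal markers (4340 to 5671 against 2434 to 3523 CPM) were lower in *Gp130* ecKO in 8 of 8 genes each, with medians of -1.25 and -0.79. Of the 5 blastocyst markers, *Cdx2*, *Nanog*, *Pou5f1* and *Sox2* were each at or below 0.316 CPM in every uterus, and *Eomes* was at 2.95, 3.24 and 7 CPM in controls and at 3.35, 2.42 and 0.912 CPM in *Gp130* ecKO. The labels name uterus and the series' design text endometrium, and smooth muscle markers summed to 606 to 2891 CPM in controls and 503 to 3077 CPM in *Gp130* ecKO. In bulk tissue, fewer cells of a type and less RNA per cell cannot be told apart, and the part of these cell types in the members' differences was not tested.

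Of the 33 genes, 28 passed the filter on low counts and were tested. None passed the threshold of the edgeR quasi-likelihood test (Benjamini-Hochberg adjusted p under 0.05 and more than 2-fold), against 0.157% of the 16605 genes tested. At an unadjusted p under 0.05 the same test had 10 members, against 25% of all genes tested. Of these, 7 were higher in *Gp130* ecKO (12.1% of all genes in that direction) and 3 were lower (12.9%), and the 10 of 28 are to be read against that broad background. In 11 of the 28 tested members every uterus of one group lay above every uterus of the other. With no filter on low counts this was so in 13 members, *Cldn6* and *Cldn19* included (20.8% of all genes without the filter). *Cldn6* had 0 counts in each control and 9, 1 and 3 in *Gp130* ecKO. A count of 0 allows up to 3 counts, so its separation is within counting error. Of the 11 tested members, *Cldn3*, *Cldn8*, *Cldn12*, *Cldn23*, *Marveld3*, *F11r*, *Tjp3* and *Cgn* were higher in *Gp130* ecKO (15.7% of all genes do so). *Jam3*, *Esam* and *Cgnl1* were lower (15.6%). The median log2 fold change was 0.27 over the 28 tested members and -0.047 over all tested genes. Without control 2, the number at an unadjusted p under 0.05 was again 10 (27.3% of all genes in that fit) and the number of non-overlapping members was 12 (45.6%). *Cgn*, *Cgnl1*, *Tjp3* and *Cldn19* were called, against 5.23% of all genes in that fit.

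The verdict depended on the test. The edgeR exact test called 5 members, *Cldn8*, *Tjp3* and *Cgn* as higher and *Esam* and *Cgnl1* as lower, against 7.54% of all genes. DESeq2 called the same 5, against 9.31% of all genes. These 5 were thus past the threshold of tests that call many genes in these libraries and not past that of the quasi-likelihood test, whose calls over all genes number 26.

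**Figure D1:**
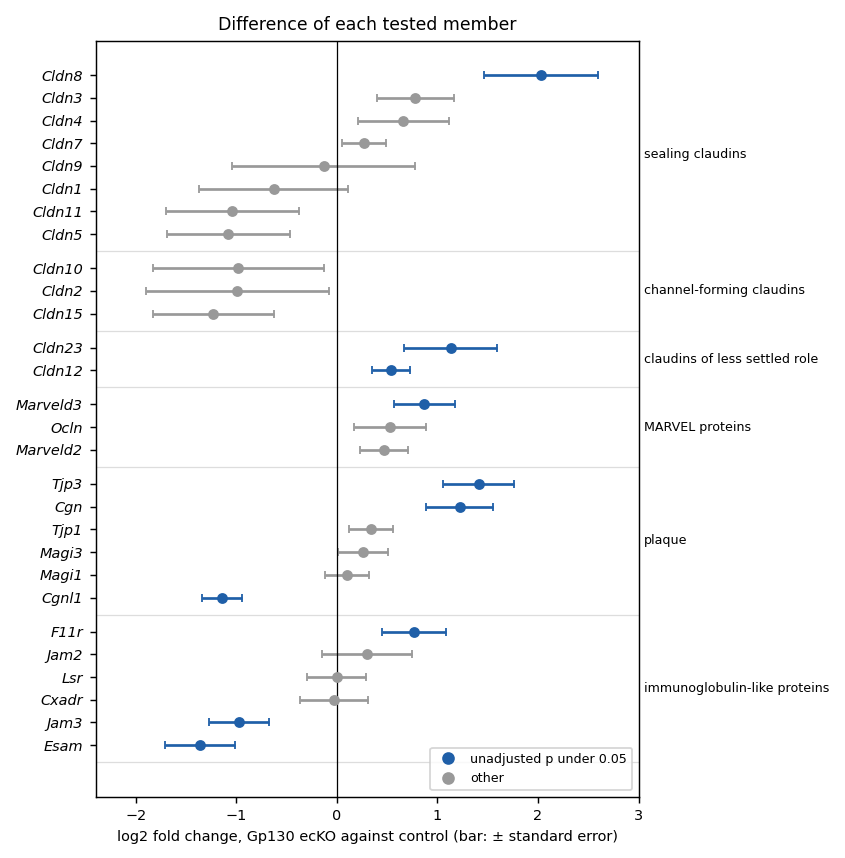
The horizontal axis gives the log2 fold change of *Gp130* ecKO against control for each of the 28 tested members, sorted within role groups, with bars of ± 1 standard error from the quasi-likelihood fit. Blue points have an unadjusted p under 0.05, and *Cldn8* lies farthest to the right at 2.03 and *Esam* farthest to the left at -1.36.

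The stretches before the start sites of 5 members are shown, chosen among the members with non-overlapping groups and a log2 fold change beyond 1 in either direction: *Cldn8*, *Cldn23* and *Cgn* on the higher side, *Esam* and *Cgnl1*, the close relative of *Cgn*, on the lower. Each runs 5′ to 3′ over the 250 bases before the start of the canonical GENCODE transcript in GRCm39, at chr16:88360072-88360321 on the minus strand for *Cldn8*, chr8:36293714-36293963 on the minus strand for *Cldn23*, chr3:94693827-94694076 on the minus strand for *Cgn*, chr9:71678885-71679134 on the minus strand for *Cgnl1* and chr9:37439094-37439343 on the plus strand for *Esam*. Capitals mark matches to the E-box of Snail-type factors (CAGGTG or CACCTG) and to the STAT motif (TTCNNNGAA), both searched on both strands.
*Cldn8*: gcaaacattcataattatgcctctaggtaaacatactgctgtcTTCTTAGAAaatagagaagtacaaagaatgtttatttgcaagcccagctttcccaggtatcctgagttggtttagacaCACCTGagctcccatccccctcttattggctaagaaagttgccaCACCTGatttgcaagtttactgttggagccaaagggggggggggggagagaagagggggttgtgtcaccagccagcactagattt
*Cldn23*: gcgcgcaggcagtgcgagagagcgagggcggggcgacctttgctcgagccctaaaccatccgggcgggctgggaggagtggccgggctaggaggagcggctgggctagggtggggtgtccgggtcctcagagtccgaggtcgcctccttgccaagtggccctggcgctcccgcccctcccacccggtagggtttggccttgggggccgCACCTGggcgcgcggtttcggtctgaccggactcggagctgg
*Cgn*: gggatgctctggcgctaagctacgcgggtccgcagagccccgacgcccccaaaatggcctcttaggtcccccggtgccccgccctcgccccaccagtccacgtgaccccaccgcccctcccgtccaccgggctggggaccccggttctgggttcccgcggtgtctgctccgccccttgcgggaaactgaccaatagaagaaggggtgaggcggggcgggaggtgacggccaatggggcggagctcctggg
*Cgnl1*: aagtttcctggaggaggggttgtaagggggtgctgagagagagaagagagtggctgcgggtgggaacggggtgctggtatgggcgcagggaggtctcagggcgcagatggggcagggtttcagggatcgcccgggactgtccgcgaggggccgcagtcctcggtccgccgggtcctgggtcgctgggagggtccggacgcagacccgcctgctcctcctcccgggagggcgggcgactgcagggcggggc
*Esam*: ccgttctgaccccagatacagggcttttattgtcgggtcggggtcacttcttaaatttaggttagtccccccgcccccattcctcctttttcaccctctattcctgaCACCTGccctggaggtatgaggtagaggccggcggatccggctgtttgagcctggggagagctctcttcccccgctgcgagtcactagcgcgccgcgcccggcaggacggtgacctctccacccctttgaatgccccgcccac
*Cldn8* held a STAT match, TTCTTAGAA, starting 207 bases before the start site, and 2 E-boxes at 129 and 85 bases before it. *Cldn23* had an E-box 42 bases before the start and *Esam* an E-box 143 bases before it. *Cgn* and *Cgnl1* had neither motif in the window. *Tjp3*, the other member of that kind, had an E-box across its start site and is not printed.

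Over a window of 250 bases before to 50 bases after the start, 15 of the 33 members (45.5%) held an E-box, against 4448 of 21630 protein-coding genes (20.6%). *Cldn4*, *Cldn7*, *Cldn8*, *Marveld3* and *Jam3* held more than 1. Of the 13 tested members with an E-box, 10 had a positive and 3 a negative log2 fold change, with a median of 0.66. The groups did not overlap in 6 on the higher side and 2 on the lower (15.7% and 15.6% of all tested genes). Of the 15 tested members without one, 6 were positive and 9 negative, with a median of -0.13. The groups did not overlap in 2 on the higher side and 1 on the lower, against the same shares of all tested genes. These counts by sign include members whose sign turned under other settings. They were *Cxadr* with an E-box, and *Cldn1*, *Cldn2*, *Cldn9*, *Cldn10*, *Jam2*, *Magi1* and *Lsr* without one. No such split is given for all genes with an E-box. The STAT motif was found in 5 members (15.2%, against 8.85% of protein-coding genes), which were *Cldn7*, *Cldn8*, *Cldn9*, *Cldn14* and *Lsr*. Of these, 4 were tested, *Cldn8* and *Cldn7* with positive values and *Cldn9* and *Lsr* with values whose sign turned under other settings. The estrogen response element (the full palindrome) matched in no member and in 0.0509% of protein-coding genes. These are counts of letters in a window and were not tested.

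The claudin transcripts of the uterus were dominated by few genes. On the TPM scale, a level per length that allows genes to be compared, *Cldn3* was highest among the members, with 830 ± 367 TPM in controls (SD, n = 3) and 1529 ± 246 TPM in *Gp130* ecKO. *Cldn7* followed with 334 ± 36.3 and 521 ± 154 TPM. Next was *Cldn10*, a channel-forming claudin, with 230 ± 257 and 118 ± 60.3 TPM, and its SD in controls exceeded its mean. It was followed by *Jam2* (216 ± 98.9 and 235 ± 145 TPM), *F11r* (125 ± 37.3 and 202 ± 33.6 TPM) and *Cldn4* (107 ± 52.4 and 183 ± 64.9 TPM). *Cldn3* and *Cldn7* differed by more than their SDs in the controls, and neighbours in the order from *Cldn7* to *Cldn4* did not. The other plaque and membrane genes lay below 100 TPM in the control mean: *Lsr* at 91.4, *Esam* at 81.5, *Cldn5* at 68.5, *Cldn23* at 58.7, *Cgnl1* at 49.9, *Ocln* at 42.1 and *Tjp1* at 33.1 TPM.

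The summed TPM of the 18 claudins was 2191, 1877 and 998 in controls and 3017, 2692 and 2102 in *Gp130* ecKO, and control 1 exceeded *Gp130* ecKO 3. *Cldn3* made up 40.3%, 62.2% and 44% of this sum in controls and 55.6%, 61.8% and 59.2% in *Gp130* ecKO. *Cldn7* took 16.4% to 29.3% in controls and 16.6% to 21.4% in *Gp130* ecKO. *Cldn10* took 24%, 3.09% and 10.6% in controls and 4.32%, 1.94% and 8.13% in *Gp130* ecKO. *Cldn8* was a small part everywhere, 0.402% to 0.548% in controls and 0.675% to 2.13% in *Gp130* ecKO, with no overlap.

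**Figure D2:**
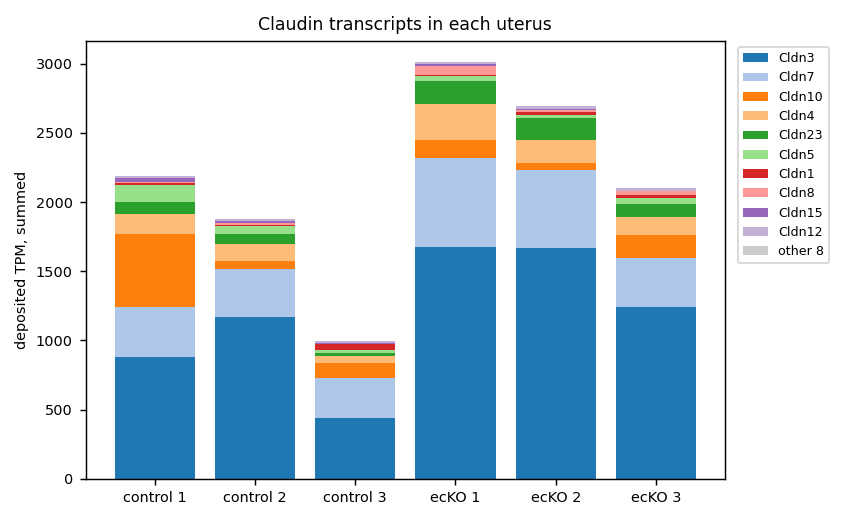
Stacked bars give the deposited TPM of the member claudins in each of the 3 control and 3 *Gp130* ecKO uteri, summed to 998 to 2191 in controls and 2102 to 3017 in *Gp130* ecKO. The lowest block, *Cldn3*, is the largest in every uterus, and the *Cldn10* block is largest in control 1, at 24% of its bar.

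Among the sealing claudins that passed the filter, *Cldn8* had the largest difference in *Gp130* ecKO. *Cldn3* and *Cldn4* had smaller positive log2 fold changes, and the groups of *Cldn4* overlapped. *Cldn8*, a barrier claudin that recruits other claudins to the junction in the collecting duct of the kidney, was at 20.5, 18.1 and 6.6 CPM in the controls and at 105, 27.5 and 53 CPM in *Gp130* ecKO. All 3 *Gp130* ecKO uteri lay above all controls, and *Gp130* ecKO 2 was the nearest to them. Its log2 fold change was 2.03 ± 0.57, with an edgeR quasi-likelihood adjusted p of 0.106 and a DESeq2 adjusted p of 0.00587. Leaving out 1 uterus at a time kept it between 1.41 and 2.39.

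*Cldn3*, the dominant claudin of the tissue, was at 848, 1066 and 376 CPM in controls and at 1429, 1308 and 1192 CPM in *Gp130* ecKO. The groups did not overlap, but controls spanned a much wider range than *Gp130* ecKO uteri and control 3 lay far below the other controls. The log2 fold change was 0.78 ± 0.38 (quasi-likelihood adjusted p = 0.245), with 0.45 without control 3 and 1.13 without control 2. *Cldn4* lies on chromosome 5 with 39279 bases between it and *Cldn3*. It was at 209, 167 and 60.1 CPM in controls and at 320, 190 and 182 CPM in *Gp130* ecKO, and its groups overlapped. Its log2 fold change was 0.66 ± 0.45 (quasi-likelihood adjusted p = 0.38), with 0.29 without control 3 and 1.04 without control 1. In both genes control 3 was the lowest of the 6 uteri. *Cldn7*, a claudin found along the whole lateral membrane of many epithelia, was at 331, 280 and 265 CPM in controls and at 443, 345 and 269 CPM in *Gp130* ecKO. Its groups overlapped and its log2 fold change was 0.27 ± 0.22 (quasi-likelihood adjusted p = 0.471).

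The other tested sealing claudins had negative log2 fold changes, each with overlapping groups. *Cldn1*, the barrier claudin of the epidermis, ranged from 14.5 to 100 CPM in controls and from 10.4 to 48.6 CPM in *Gp130* ecKO, with a log2 fold change of -0.63 ± 0.74 that turned to 0.32 without control 3. *Cldn5*, the claudin of endothelium, was at 135, 62.6 and 19.9 CPM in controls and at 34.2, 22.2 and 46.7 CPM in *Gp130* ecKO. Its log2 fold change of -1.08 ± 0.61 was -0.25 without control 1. *Cldn11*, the claudin of myelin and of Sertoli cells, stayed between 0.467 and 3.16 CPM in controls and between 0.577 and 1.09 CPM in *Gp130* ecKO (-1.04 ± 0.66, and -0.14 without control 1). *Cldn9*, known from the inner ear, was at or below 0.81 CPM in every uterus, and its log2 fold change of -0.13 ± 0.91 gives no direction.

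Several claudins were too low to test. *Cldn6*, a claudin of embryonic epithelia, had 0 counts in each control and 9, 1 and 3 counts in *Gp130* ecKO, where a count of 0 allows up to 3 counts per library. *Cldn14* had 0 counts in all 6 uteri and *Cldn18* had 1 count in control 2 and 0 elsewhere. *Cldn19*, known with *Cldn16* from the thick ascending limb of the kidney, had 21, 5 and 18 counts in controls and 1, 0 and 1 in *Gp130* ecKO. Summed over the groups and scaled to their depth, this is a ratio of control to *Gp130* ecKO of 24.2, with an exact 95% interval of 6.32 to 206 that covers counting error only. All 3 controls were above all 3 *Gp130* ecKO uteri, at levels of 0.193 to 1.2 CPM against 0 to 0.0452 CPM. It was below the filter in the main test and was called without control 2 by the edgeR quasi-likelihood test (adjusted p = 0.0164). Control 2 was the control with the fewest *Cldn19* counts. With all 6 uteri and no filter the log2 fold change was -4.38, and *Cldn19* was not called (quasi-likelihood adjusted p = 0.0824).

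The channel-forming claudins were low or spread widely and none separated the groups. *Cldn10*, which forms cation or anion channels depending on its isoform, was at 542, 56.6 and 94.4 CPM in controls and at 125, 45.9 and 182 CPM in *Gp130* ecKO. Control 1 alone set the control mean, and the log2 fold change of -0.98 ± 0.85 became 0.67 without it. *Cldn2*, the cation and water channel of leaky epithelia, was between 0.54 and 4.33 CPM in controls and between 0.269 and 1.87 CPM in *Gp130* ecKO (-0.99 ± 0.91), and its sign turned without control 3, at 0.18. *Cldn15*, a sodium channel of the intestine, was at 39.2, 25.4 and 8.2 CPM in controls and at 17.1, 5.92 and 8.17 CPM in *Gp130* ecKO (-1.23 ± 0.6, quasi-likelihood adjusted p = 0.244). Its log2 fold change was -0.69 without control 1 and -1.79 without *Gp130* ecKO 1. *Cldn16*, a magnesium and calcium channel claudin of the kidney, had 16 counts in *Gp130* ecKO 3 and 0 counts in the other 5 uteri.

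The level of *Cldn15* was set beside those of the mesothelial markers. *Upk3b* was at 108, 62.4 and 17.4 CPM in controls and at 60.7, 19.7 and 25 CPM in *Gp130* ecKO. *Lrrn4* was at 25.5, 20.9 and 5.47 CPM and at 15, 5.96 and 8.41 CPM, and *Msln* at 27.4, 19.2 and 5.73 CPM and at 12.3, 6.73 and 8.25 CPM. In all 4 genes control 1 was highest and control 2 second among the 6 uteri, followed by *Gp130* ecKO 1. The order of the other uteri differed, with control 3 lowest in the markers and *Gp130* ecKO 2 lowest in *Cldn15*. *Wt1*, the fourth mesothelial marker, which stroma also expresses, did not follow, with its highest value of 138 CPM in control 3. All 4 mesothelial markers had negative log2 fold changes, and their summed level was 167 to 250 CPM in controls and 67.1 to 117 CPM in *Gp130* ecKO. *Wt1* was a large part of that sum, at 89.6, 65.4 and 138 CPM in controls and at 29, 59.9 and 25.5 CPM in *Gp130* ecKO. Of the 4, the groups did not overlap in *Wt1*, and they overlapped in *Upk3b*, *Lrrn4* and *Msln*. The part of mesothelium in the level of *Cldn15* was not tested.

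The 2 claudins of less settled role were both higher in every *Gp130* ecKO uterus than in any control. *Cldn23* was at 118, 95.5 and 30.5 CPM in controls and at 220, 184 and 134 CPM in *Gp130* ecKO (1.13 ± 0.46 on the log2 scale, quasi-likelihood adjusted p = 0.182). Control 3 was again the lowest, and without single uteri the value lay between 0.74 and 1.52. *Cldn12* was at 34.4, 26.4 and 26 CPM in controls and at 42.1, 38.8 and 45.6 CPM in *Gp130* ecKO. That is a small difference with a narrow spread, 0.54 ± 0.19 (quasi-likelihood adjusted p = 0.139).

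**Figure D3:**
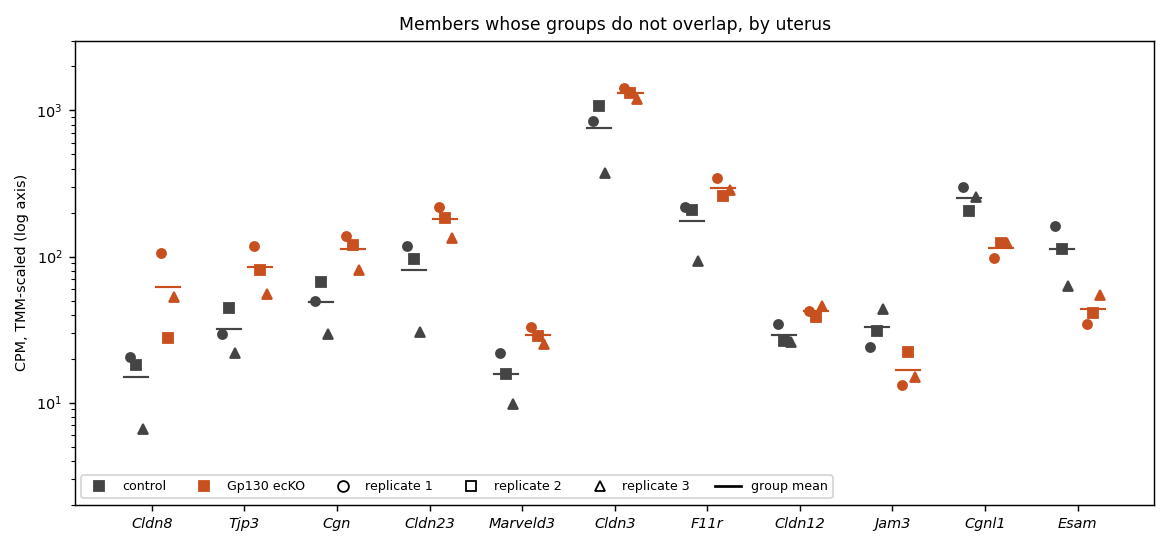
Points give the CPM, scaled by the trimmed mean of M values (TMM), of each uterus on a log axis for the 11 tested members whose groups do not overlap, grey for control and orange for *Gp130* ecKO, with marker shapes for the replicate numbers and horizontal lines for the group means. *Cldn8*, *Tjp3*, *Cgn*, *Cldn23*, *Marveld3*, *Cldn3*, *F11r* and *Cldn12* are higher in *Gp130* ecKO and *Jam3*, *Cgnl1* and *Esam* lower.

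The MARVEL proteins, which cross the membrane several times within the strands, had positive log2 fold changes in 3 of 3 members, while *Marveld1*, a MARVEL gene outside the members, was lower in every *Gp130* ecKO uterus than in any control (-0.71 ± 0.22). *Marveld3* was at 21.7, 15.8 and 9.8 CPM in controls and at 32.9, 28.6 and 25.1 CPM in *Gp130* ecKO, with no overlap and a log2 fold change of 0.87 ± 0.3 (quasi-likelihood adjusted p = 0.146). *Ocln* (occludin) was at 140, 82.6 and 52.7 CPM in controls and at 172, 123 and 103 CPM in *Gp130* ecKO (0.53 ± 0.36, with 0.25 without control 3 and 0.99 without control 1). *Marveld2* (tricellulin, the protein of tricellular corners) was at 49.6, 35.1 and 33.1 CPM and at 66.8, 53.6 and 42.7 CPM (0.47 ± 0.24). In both, control 1 lay within the *Gp130* ecKO range. *Ocln* and *Marveld2* are neighbours on chromosome 13 with 42928 bases between them.

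The immunoglobulin-like proteins split. *F11r* (JAM-A), the junctional adhesion molecule of epithelia, was at 220, 208 and 93.5 CPM in controls and at 343, 258 and 286 CPM in *Gp130* ecKO (0.77 ± 0.32, quasi-likelihood adjusted p = 0.196). *Esam*, an adhesion molecule of endothelial junctions, was at 162, 112 and 62.4 CPM in controls and at 34.6, 41.3 and 54.9 CPM in *Gp130* ecKO. *Jam3* (JAM-C), found in endothelium, epithelium and muscle, was at 24.1, 31 and 43.7 CPM in controls and at 13.3, 22.1 and 15 CPM in *Gp130* ecKO. Groups did not overlap in any of these 3 genes, with *F11r* higher and the other two lower. The log2 fold change of *Esam* was -1.36 ± 0.35, with a quasi-likelihood adjusted p of 0.0953 and a DESeq2 adjusted p of 0.00993. That of *Jam3* was -0.97 ± 0.3, with adjusted p of 0.119 and 0.0381 from the same tests in the same order.

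*Jam2* (JAM-B) was at 318, 635 and 757 CPM in controls and at 554, 1128 and 418 CPM in *Gp130* ecKO, so that the spread within each group exceeded the difference between them (0.30 ± 0.45). *Cxadr*, the coxsackievirus and adenovirus receptor, was at 153, 70.7 and 80.5 CPM and at 135, 80.3 and 83.2 CPM (-0.026 ± 0.34). *Lsr* (angulin-1), the partner of tricellulin at corners between cells, was at 204, 118 and 92.1 CPM and at 128, 128 and 157 CPM (-0.0036 ± 0.29). *Cxadr* and *Lsr* were near 0 and turned sign under other settings, so no direction is given for them.

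*Esam* and *Cldn5* were set beside the 8 endothelial markers, since both are known from endothelium. *Pecam1* was at 290, 179 and 99.3 CPM in controls and at 53.8, 95.6 and 97.9 CPM in *Gp130* ecKO, *Cdh5* at 225, 201 and 107 CPM and at 70.3, 135 and 71.8 CPM. *Emcn* was at 94.7, 62.7 and 42.5 CPM and at 17.4, 29.5 and 27.8 CPM. *Esam* and *Cldn5* had the same order of the 3 controls as all 3 of these genes, and *Esam* like them was lowest in *Gp130* ecKO 1. That order of controls was not particular to endothelial genes. *Cldn4* (209, 167 and 60.1 CPM), *Krt18* (581, 459 and 286 CPM) and *Acta2* (986, 626 and 170 CPM) had it too, while *Krt8* (435, 649 and 347 CPM) did not. Among the *Gp130* ecKO uteri *Esam* and *Pecam1* were highest in *Gp130* ecKO 3, and *Cdh5* and *Emcn* in *Gp130* ecKO 2. *Cldn5* was lowest of these uteri in *Gp130* ecKO 2, at 22.2 CPM, and highest in *Gp130* ecKO 3, at 46.7 CPM. *Tie1* had a log2 fold change of -1.44 and *Vwf* of -0.68, and the value of -1.36 for *Esam* lies within the range of the list. *Cldn5* lay within the range too, but control 3 held its lowest value, unlike in *Pecam1*, *Cdh5* and *Emcn*. The part of endothelium in these differences was not tested.

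**Figure D4:**
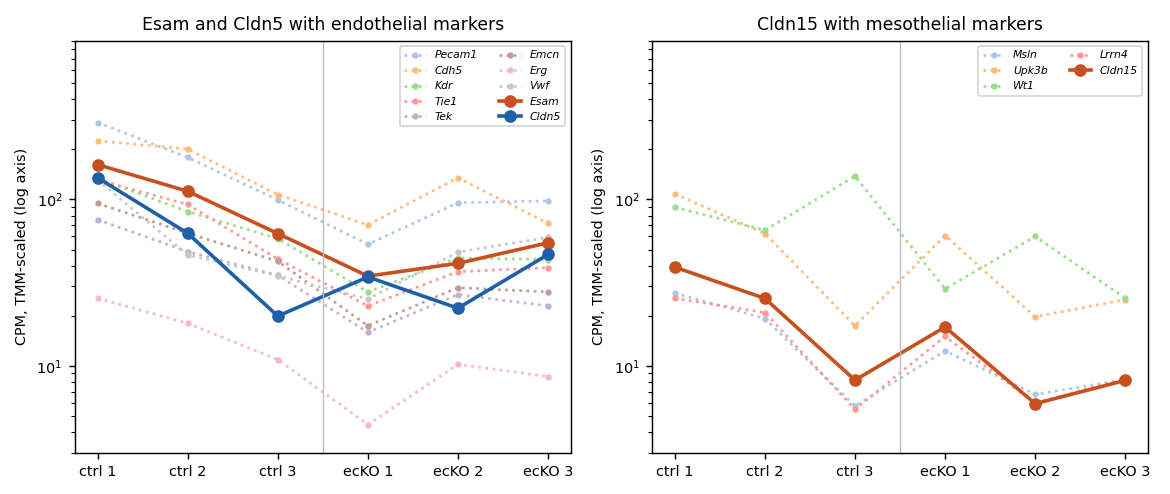
Both panels give TMM-scaled CPM on a log axis for each uterus, with dotted lines joining the values of one marker gene and thick lines those of *Esam*, *Cldn5* or *Cldn15*; the lines carry no order of time. On the left *Esam* runs beside the endothelial markers, from 162 CPM in control 1 to 34.6 CPM in *Gp130* ecKO 1, and on the right *Cldn15* runs beside *Upk3b*, *Lrrn4* and *Msln* but not *Wt1*.

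In the plaque, ZO-3 and cingulin were higher in *Gp130* ecKO and the cingulin paralog was lower. *Tjp3* (ZO-3) was at 29.7, 44.7 and 21.7 CPM in controls and at 119, 80.7 and 55.2 CPM in *Gp130* ecKO. *Cgn* (cingulin), which links the junction to actin and microtubules, was at 49.5, 66.6 and 29.6 CPM in controls and at 139, 120 and 80.3 CPM in *Gp130* ecKO. *Cgnl1* (paracingulin), its relative at tight and adherens junctions, was at 300, 204 and 256 CPM in controls and at 97.6, 123 and 123 CPM in *Gp130* ecKO. All 3 genes separated the groups, *Tjp3* and *Cgn* upward and *Cgnl1* downward.

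The log2 fold change was 1.41 ± 0.35 for *Tjp3* (quasi-likelihood adjusted p = 0.0938, DESeq2 adjusted p = 0.00593) and 1.22 ± 0.33 for *Cgn* (0.102 and 0.0128 from the same tests). For *Cgnl1* it was -1.14 ± 0.20, the member with the smallest quasi-likelihood adjusted p, 0.0635, and a DESeq2 adjusted p of 0.000146. Without control 2, the quasi-likelihood adjusted p was 0.0449 for *Tjp3*, 0.0499 for *Cgn* and 0.0269 for *Cgnl1*, so that the call of all 3 in that fit rests on leaving out that uterus. The *Cgn* value has a limit from sequence: 15.4% of its 75-base stretches occur in other genes on the same strand, so some of its reads may have been divided among them by the estimated counts.

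The scaffolds showed little difference. *Tjp1* (ZO-1) was at 174, 153 and 132 CPM in controls and at 220, 220 and 143 CPM in *Gp130* ecKO (0.34 ± 0.22, quasi-likelihood adjusted p = 0.359). *Magi1* and *Magi3*, scaffolds with guanylate kinase, WW and PDZ domains, had log2 fold changes of 0.10 ± 0.22 and 0.26 ± 0.25. The groups overlapped in all 3 genes.

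Other genes of the junction, from a list of 27 polarity proteins, scaffolds, angulins and regulators, were all tested and none was called by the quasi-likelihood test, while 6 were higher and 5 lower at an unadjusted p under 0.05 (12.1% and 12.9% of all tested genes). In 13 the groups did not overlap, 6 on the higher side and 7 on the lower (15.7% and 15.6% of all tested genes). Their median log2 fold change was -0.0082, against 0.27 for the members. Atypical protein kinase C, which marks the apical domain with Par6, was higher in both forms, with *Prkci* at 118, 156 and 106 CPM in controls and at 278, 231 and 193 CPM in *Gp130* ecKO and *Prkcz* at 24.3, 22.9 and 19.8 CPM and at 46, 34.5 and 34.1 CPM. *Ildr1* (angulin-2) had a log2 fold change of 0.64 and the polarity scaffold *Pals1* one of 0.66. Other polarity genes of the list differed less, each with overlapping groups. *Pard6b*, a Par6 gene, had a log2 fold change of 0.46, and *Pard3*, *Pard3b*, *Patj* and *Crb3* lay between -0.10 and 0.07. On the lower side were *Amotl1* with -0.90, *Mpdz* (MUPP1, the multi-PDZ partner of claudins) with -0.83 and *Ybx3* (the ZO-1-bound Y-box protein) with -0.54. Of the other claudins, only *Cldn34c1* passed the filter, at 3.87 to 6.32 CPM in controls and 3.23 to 5.23 CPM in *Gp130* ecKO.

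The members that were higher were set beside the epithelial markers in the same way. *Cdh1* (E-cadherin) was at 699, 733 and 615 CPM in controls and at 1219, 1131 and 887 CPM in *Gp130* ecKO, and *Grhl2*, a transcription factor of epithelial junctions, at 53.2, 63.5 and 50.6 CPM and at 131, 106 and 83.8 CPM. Both separated the groups, as 6 of the 9 markers did (15.7% of all tested genes do so upward), with log2 fold changes of 0.66 and 0.94. *Epcam*, which binds *Cldn7*, was at 650, 379 and 348 CPM in controls and at 429, 363 and 414 CPM in *Gp130* ecKO (-0.19), and its groups overlapped. The highest log2 fold changes of the list were 2.19 in *Krt19* and 1.32 in *Krt8*, and those of *Cldn8* (2.03) and *Tjp3* (1.41) lay between them. The part of epithelium in the members' differences was not tested.

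Position and overlap bear on how counts could be assigned to the members. In GRCm39 the members called by the exact test lie apart, *Cldn8* (ENSMUSG00000050520) at chr16:88357716-88360071, *Tjp3* (ENSMUSG00000034917) at chr10:81109034-81127417, *Cgn* (ENSMUSG00000068876) at chr3:94667376-94695136, *Esam* (ENSMUSG00000001946) at chr9:37439344-37449615 and *Cgnl1* (ENSMUSG00000032232) at chr9:71533791-71678884, the last pair on the same chromosome. Chromosome 16 holds 7 of the 33 genes, more than any other, and *Cldn6* and *Cldn9* lie with 137 bases between them on chromosome 17. Of the 75-base stretches of *Cldn3*, 67% lie opposite the antisense gene *Wbscr25*, which was at 0.267 CPM or less in every uterus. *Jam3* shares 20% of its stretches with genes on the other strand, among them *Ncapd3* at 15.2 to 24.8 CPM, within the range of *Jam3* itself, and *Lsr* shares 19.8%, *Cxadr* 15.5%, *Cldn19* 14.9% and *Cldn7* 11.8%. The library kit keeps the strand, but which strand setting was used in counting was not given in the sources used here, so the counts of these 6 genes and their partners may be mixed if strand was ignored.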

How the data were processed

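RNA of 6 mouse uteri (3 control, 3 *Gp130* ecKO) was analysed from 1 gene table per uterus. The authors trimmed reads with fastp 0.23.2, removed ribosomal reads with SortMeRNA, mapped to GRCm39 with STAR 2.7.10a and deposited RSEM 1.3.3 expected counts per gene. The authors' TPM, deposited in the same tables, served only for levels between genes, and the deposited FPKM were not used. The annotation release and the strand setting of counting were not given in the sources used here. The authors tested with edgeR 3.38.4 in R 4.2.1.

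Gene identifiers were matched to GENCODE M39 (56017 of 56748). Expected counts were rounded, filtered with filterByExpr, scaled by TMM and tested in R 4.3.3 with edgeR 4.0.16 (quasi-likelihood test, no covariates, Benjamini-Hochberg adjustment over 16605 genes, called under 0.05 with more than 2-fold). Standard errors were derived from the fit as the log2 fold change over the square root of the F statistic. DESeq2 1.42.0, the edgeR exact and likelihood ratio tests, other scalings and filters, a replicate block and leaving out each uterus were alternatives. The exact permutation test of 3 against 3 cannot go below 0.1 and was not used for calls. The scripts were tested on simulated counts. Members, lists and tests were chosen with earlier results of these data known. All members are named. Values in every uterus were planned for called members, for members whose mean CPM reached 1 with non-overlapping groups and a log2 fold change beyond 1, and for the 5 highest in TPM. Values in every uterus of further members and list genes were added after the values were seen. Promoter windows were read from GRCm39 at the start of the GENCODE M39 canonical transcript. A planned search of protein features was not run. Intervals and limits of low counts cover counting error only.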

Additional observations from a re-analysis of the deposited data

How the results depend on the processing

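Under 16 alternatives, 20 of the 28 tested members kept the sign of their log2 fold change in each. Over all genes, 26 were called in the main quasi-likelihood test, against 7 in its legacy form, 1252 in the edgeR exact test, 1317 in the edgeR likelihood ratio test, 1546 in DESeq2 and 105 with no filter on low counts, and between 1 and 897 with 1 uterus left out. Members called numbered 0, against 5 in each of the exact test, the likelihood ratio test and DESeq2, and 0 to 4 with 1 uterus left out; all 4 came from leaving out control 2. The cause was not tested. With the replicate number as a block, 6 genes and 0 members were called and 15 members had an unadjusted p under 0.05 (22.1% of all genes in that fit), against 10 in the fit without it. Deviations of same-numbered uteri from their group means correlated at 0.102, 0.0613 and -0.19. Such correlations cannot show whether same-numbered uteri were collected or prepared together, and the labels give only the numbers. The sign turned with 1 uterus left out for *Cldn1* (leave-one-out range -1.03 to 0.32), *Cldn2* (-1.91 to 0.18), *Cldn9* (-0.65 to 0.84), *Cldn10* (-1.42 to 0.67), *Jam2* (-0.22 to 0.59), *Magi1* (-0.044 to 0.27), *Cxadr* (-0.31 to 0.42) and *Lsr* (-0.23 to 0.42). *Cxadr* was also at 0.0025 with no filter and at 0.017 with the replicate block. *Lsr* was also at 0.01 in DESeq2 and with median ratio size factors, at 0.021 with no filter and at 0.07 with the replicate block. The median of all genes was -0.047 with TMM, -0.031 with median ratio size factors and -0.1 with total counts. At these depths a count of 0 allows 0.115 to 0.2 CPM, and the members under the filter (*Cldn6*, *Cldn14*, *Cldn16*, *Cldn18* and *Cldn19*) lay at or near this limit in at least 1 group.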

Other observations

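Among the other cell type lists, *Ovgp1* (oviductal glycoprotein 1) was the marker called by the edgeR quasi-likelihood test, at 47.9, 85.3 and 50.6 CPM in controls and at 615, 1193 and 552 CPM in *Gp130* ecKO, with a log2 fold change of 3.68 and an adjusted p of 0.0377. That value lay between 1.24e-17 and 0.137 under other settings, and the call was lost in some of them. The other oviduct markers, *Pax2* and *Foxj1*, were higher at an unadjusted p under 0.05 with overlapping groups. The 7 smooth muscle markers overlapped between the groups in each gene, and none had an unadjusted p under 0.05, against 25% of all tested genes. None of the 5 gland, 6 macrophage or 4 tested lymphocyte markers had an unadjusted p under 0.05 in the quasi-likelihood test. Of the gland markers, *Prss29* ranged from 1.7 to 523 CPM in controls and from 48.9 to 6546 CPM in *Gp130* ecKO.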
